A study of Mus musculus with 4 samples.

Results

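The Shc adaptor family was described across the dorsal cortex of mouse embryos with and without Mek1 on a background that lacks Mek2. Its members are Shc1, Shc2, Shc3 and Shc4, 4 of the 19938 genes that have a feature of their own in the deposited table. They were taken by gene symbol. Where a gene had several features, the one with the highest mean over the arrays was to be kept, but each Shc gene is named by 1 feature, so that choice did not arise. The family was chosen by these symbols with the lower values of Shc3 in the mutants already known. The comparison of mutants with controls is therefore a description of the members, and their p-values, taken from a fit over all genes, are no independent evidence.

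RNA came from dorsal cortex of embryos at E18.5 and was measured on 4 single-colour whole-transcript arrays, 2 per group. The 2 control samples have the genotype Mek1fl/wt, Mek2-/-, and the 2 mutant samples have Mek1fl/fl, Mek2-/- with NestinCre, per the labels. The series' design text calls the controls WT, which goes against these genotype labels, and the labels are followed here. By the labels all 4 samples lack Mek2, and the groups differ in their Mek1 alleles (fl/wt against fl/fl) and in the NestinCre transgene. NestinCre expresses the recombinase Cre in neural progenitors, so that their neuronal and glial descendants carry the deletion, while blood vessels, microglia and meninges largely do not come from these cells. The labels name NestinCre for the mutants alone, so the transgene and the loss of Mek1 cannot be told apart. The labels do not say that the samples of a group come from separate litters, and p-values measure the spread between these samples.

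Shc proteins are adaptors. They have no enzyme activity of their own and bind phosphorylated tyrosines on activated receptors through a PTB domain and an SH2 domain. Tyrosines between these domains are then phosphorylated and recruit GRB2, which brings the exchange factor SOS to RAS and so starts the RAF, MEK and ERK kinase cascade. MEK1 and MEK2, which are Map2k1 and Map2k2, stand near the end of that chain, well downstream of Shc. Shc1 (ShcA) is the broadly expressed member and is known from neural progenitors. Shc2 (ShcB) and Shc3 (ShcC, also called N-Shc or Rai) are known above all from the nervous system and act beside receptors such as the Trk neurotrophin receptors. Shc4 (RaLP) is known from melanoma and brain.

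All values are log2 expression as deposited after RMA, which brings the arrays to a common distribution. Levels of different features cannot be set against each other on these arrays, so genes were compared by their differences between the groups. The threshold for a call was an adjusted p under 0.05 in limma, with Benjamini-Hochberg adjustment over the 13956 genes whose mean over the arrays lay at or above 6.16, the 30th percentile. All 4 Shc genes passed that filter. Map2k1, the targeted gene, was at 8.76 and 8.84 in controls and 8.50 and 8.73 in mutants (difference -0.19 ± 0.09 (SE), adjusted p = 0.469 in limma). Map2k2 was at 8.57 and 8.47 in controls and 8.57 and 8.64 in mutants (adjusted p = 0.657). Both features summarise probes whose place relative to the deleted parts was not known, so neither checks the genotype labels. Among dorsal forebrain markers, Emx1, Lhx2, Neurod6 and Tbr1 differed between the groups by -0.13 to 0.11, while Emx2 was at 6.71 on mutant 1 against 7.56 to 7.86 on the other arrays. By Xist and the Y-linked genes, control 1 and mutant 2 came from female and control 2 and mutant 1 from male embryos.

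RefSeq start-site windows (GRCm38.p6, 250 bases before to 50 after an annotated start) were at hand for Shc1, Shc2 and Shc4, 4 windows in all. There was none for Shc3, so the motif matches do not cover it. They are shown because ETS factors, of which the ERK targets Etv4 and Etv5 fell in these mutants, and AP-1, the dimer that FOS takes part in, bind short motifs that can be looked for in them. The motifs were chosen with the windows in view. The ETS motif searched was CCGGAAGT, the AP-1 motif TGANTCA and the CRE motif TGACGTCA, each on both strands, and the matches are in capitals in the 2 windows below.
Shc1, chr3:89418301-89418600, plus strand: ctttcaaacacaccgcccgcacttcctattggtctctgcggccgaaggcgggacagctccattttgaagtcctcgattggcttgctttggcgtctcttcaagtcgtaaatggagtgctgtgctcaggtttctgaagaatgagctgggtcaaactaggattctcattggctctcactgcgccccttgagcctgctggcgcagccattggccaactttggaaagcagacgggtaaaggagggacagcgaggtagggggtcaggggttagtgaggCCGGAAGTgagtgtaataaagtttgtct
Shc4, chr2:125724099-125724398, minus strand: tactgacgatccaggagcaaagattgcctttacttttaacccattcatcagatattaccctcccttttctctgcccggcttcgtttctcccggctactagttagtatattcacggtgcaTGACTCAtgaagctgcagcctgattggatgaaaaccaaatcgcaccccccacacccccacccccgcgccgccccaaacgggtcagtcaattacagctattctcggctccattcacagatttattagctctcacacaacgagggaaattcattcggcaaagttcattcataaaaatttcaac

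The ETS match in the Shc1 window begins at position 23, counting the annotated start as 1, and such a match is found in 3.89% of all 32851 windows of this length. The AP-1 match in the Shc4 window begins at position -131. The other Shc1 window, chr3:89421371-89421670 on the plus strand, also holds 1 AP-1 match, at position -92, and 7.81% of all windows hold one. The Shc2 window, chr10:79637869-79638168 on the minus strand, holds none of the 3 motifs. None of these windows of Shc1, Shc2 and Shc4 holds the CRE motif, which 1.79% of all windows hold. These matches describe letters in the windows and are no evidence of binding.

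Of the 4 members, Shc3 was called and was lower in the mutants, and the other three were not called, where 1.02% of all genes tested were called in either direction. The groups did not overlap for Shc1, Shc3 and Shc4, as for 44.3% of all genes tested. Shc3 was at 10.16 and 10.27 in the controls and at 9.04 and 8.92 in the mutants. Both mutant arrays lay far under both controls: the gap between the nearest arrays of the groups was 1.12, against 0.11 between the controls and 0.12 between the mutants. The group means were 10.21 ± 0.08 and 8.98 ± 0.08 (SD, n = 2 each), a difference of -1.23 ± 0.07 (SE; 95% interval -1.41 to -1.05) or 2.35-fold lower in the mutants (adjusted p = 0.00934 in limma). Set against the control mean, mutant 1 lay at -1.17 and mutant 2 at -1.29. Among the genes tested, 1.01% were called lower and 0.0143% higher, and Shc3 ranked 12 by p and 15 by the size of its difference. With embryo sex as a covariate Shc3 was called too (adjusted p = 0.0211 in limma). It was not called without control 1 (-1.28, adjusted p = 0.0603 in limma) or without control 2 (-1.18, adjusted p = 0.0678 in limma), where the size of the difference hardly moved and the spread came from the mutant pair alone.

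Shc4 was lower in the mutants by less, and it did not pass the test. It was at 6.74 and 6.59 in the controls and at 6.27 and 6.43 in the mutants. The groups did not overlap, and the gap of 0.16 between them was close to the gaps of 0.15 and 0.16 within them. The difference was -0.32 ± 0.09 (SE; 95% interval -0.54 to -0.10, unadjusted p = 0.0128, adjusted p = 0.221 in limma). Groups that do not overlap, with the mutants lower, were seen in 21.4% of the genes tested. The mutant values lay close to the filter on dim genes (6.16), where RMA compresses differences towards 0, and no measure of signal over background was at hand. Without mutant 2 the difference was -0.40 and passed (adjusted p = 0.0479 in limma); without mutant 1 it was -0.24 (adjusted p = 0.279 in limma).

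Shc1, the broadly expressed member, did not pass either. Its values were 6.87 and 6.82 in the controls and 6.89 and 7.01 in the mutants. The mutants were higher, with mutant 1 above control 1 by only 0.02. The difference was 0.10 ± 0.07 (SE; 95% interval -0.07 to 0.27, adjusted p = 0.583 in limma), and groups that do not overlap with the mutants higher were seen in 22.8% of the genes tested. The interval leaves room for a rise of 0.27 or a fall of 0.07, and a fall of the size seen for Shc3 lies outside it. From a control mean of 6.84 such a fall would end under the filter on dim genes (6.16), where RMA compresses differences towards 0. The feature gives 1 value for all transcripts of the gene, of which RefSeq lists 2 curated ones, so the long p66 form cannot be told from the shorter forms.

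Shc2 had the widest spread of the family. It was at 7.20 and 7.41 in the controls and at 7.33 and 7.66 in the mutants, and the groups overlapped. The difference was 0.19 ± 0.13 (SE; 95% interval -0.14 to 0.52, adjusted p = 0.615 in limma). It was 0.02 without mutant 2 and 0.35 without mutant 1, so its size rested on which mutant array was kept. A fall of the size seen for Shc3 lies outside this interval too, though from a control mean of 7.31 it would end near the filter on dim genes.

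**Figure D1:**
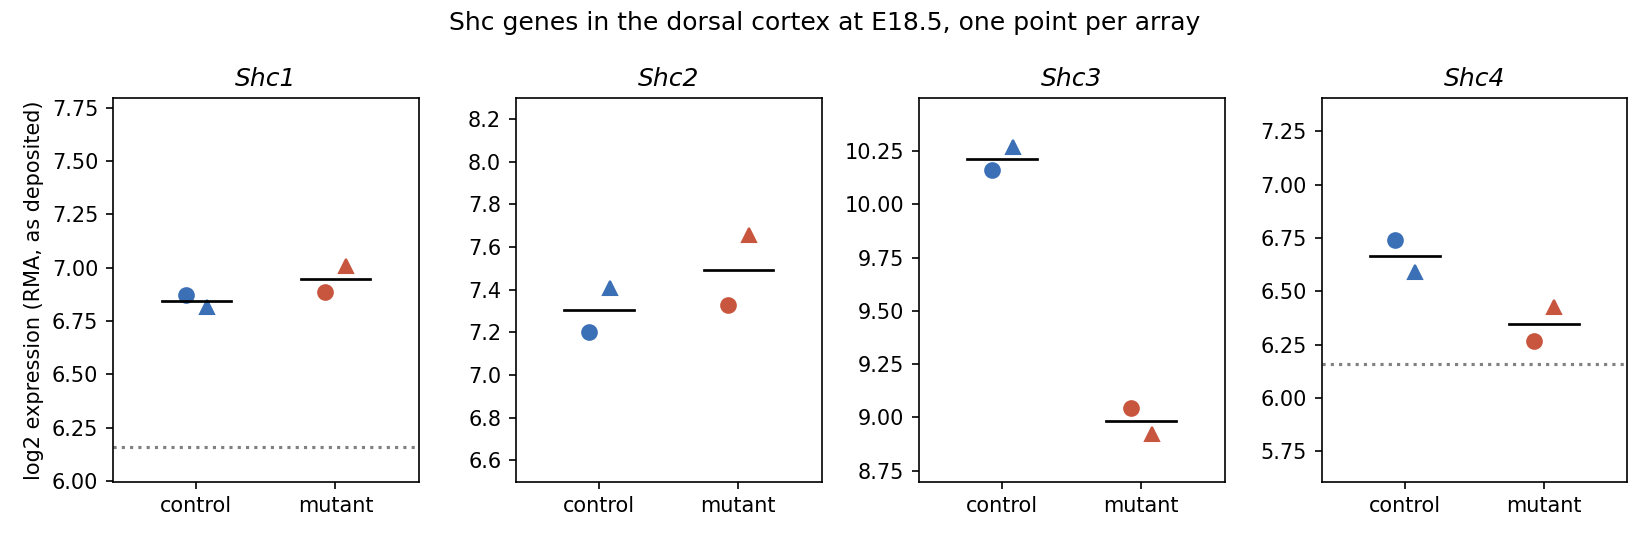
Log2 expression of each Shc gene (y axis, deposited RMA values) in controls (blue) and mutants (red), with a circle for replicate 1, a triangle for replicate 2 and a line at the group mean. Each panel spans the same range around the gene's own mean because levels of different features cannot be compared, and the dotted line, where in range, is the filter on dim genes; the Shc3 groups stand 1.12 apart at their nearest arrays.

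**Figure D2:**
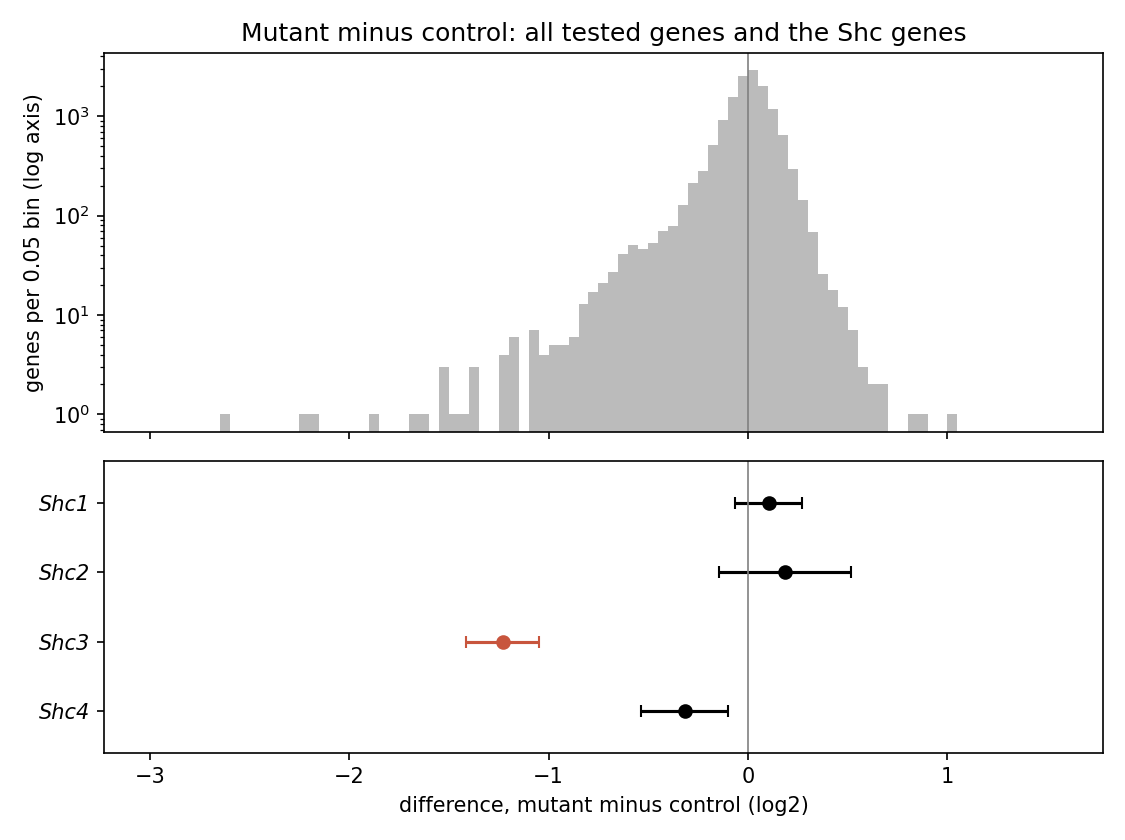
The upper panel counts all 13956 tested genes by their difference, mutant minus control (x axis, log2; y axis on a log scale), and the lower panel gives the difference of each Shc gene with its 95% interval from limma. Shc3 lies at -1.23 and the other members between -0.32 and 0.19.

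The members were set against each other within arrays, where scaling of the whole array cancels. For each of the 6 pairs, the log2 difference between the genes was taken on every array and compared between the groups. The change of Shc3 was lower than that of Shc1 by 1.33 (reported here as Shc1 minus Shc3), lower than that of Shc2 by 1.42 (Shc2 minus Shc3) and different from that of Shc4 by -0.91 (Shc3 minus Shc4). In these 3 pairs the arrays of the groups did not overlap. They did not overlap for Shc1 minus Shc4 (0.42) or Shc2 minus Shc4 (0.51) either, and they overlapped for Shc1 minus Shc2 (-0.08). The pairs share genes and are not separate observations, and the groups did not overlap for 44.3% of all single genes tested. With 2 arrays against 2 the exact permutation test (two-sided) cannot go below p = 0.333, which 5 pairs reached (0.4 after Benjamini-Hochberg adjustment over the 6 pairs), so no pair could pass.

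The genes whose values over the 4 arrays were nearest to those of Shc3 were looked for among all tested genes with an assigned name. Likeness was the root mean square distance between the 4 values after each gene was centred on its own mean, which describes these arrays and says nothing about function. Shc3 itself stood at 0.56 and 0.67 above its mean in controls and at -0.56 and -0.67 in mutants. Nearest was Paqr8, a membrane progestin receptor, at a distance of 0.11, with control values of 9.17 and 9.15 and mutant values of 8.16 and 8.09. Etv5, an ETS factor induced by ERK, followed at 0.11, with 8.71 and 8.61 in controls and 7.28 and 7.27 in mutants. Hepacam, the glial adhesion protein GlialCAM, was at 0.12, with control values of 7.73 and 7.74 and mutant values of 6.49 and 6.67. The other three were Dct, dopachrome tautomerase (distance 0.12, difference -1.06), Cybrd1, a ferric reductase (0.12, -1.38), and Tlcd1, a membrane protein with a TLC domain (0.13, -0.98). Dct was at 6.02 and 6.11 in mutants, under the filter on dim genes (6.16), which it passed through its control values. The 6 genes were called lower in limma, as a choice by likeness to a called gene makes likely. In all, 32 genes lay within 0.2 of Shc3, against a median distance of 0.62 over all genes.

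**Figure D3:**
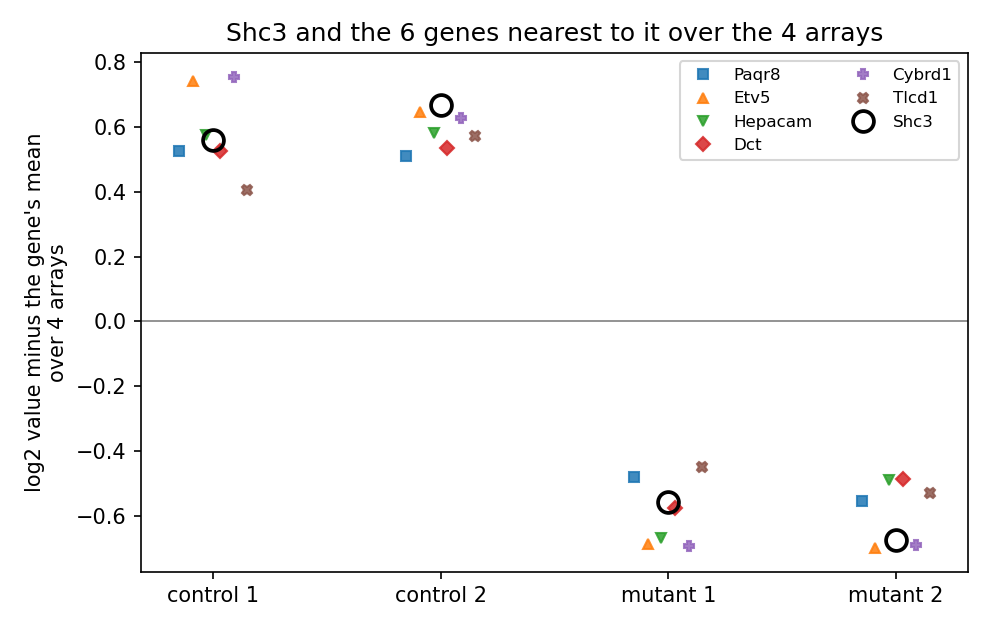
Log2 value minus the gene's own mean (y axis) on each of the 4 arrays (x axis) for Shc3 (open circle) and the 6 nearest genes (filled symbols, shifted sideways for legibility). All 7 genes lie above 0 on both control arrays and below 0 on both mutant arrays, between 0.41 and 0.76 in controls.

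Upstream of the adaptors, 2 of 18 tested receptors that signal through Shc were called lower, and none were called higher. Over all genes tested, 1.01% were called lower and 0.0143% higher. Of the 18 receptors, 6 had an unadjusted p under 0.05 in limma, each lower in the mutants, against 13.4% of all genes tested. A lower mean in the mutants was seen for 10 of the 18. Egfr, the EGF receptor, was at 7.79 and 7.42 in controls and at 6.37 and 6.39 in mutants, with both mutants more than 1 unit under the nearest control (difference -1.22 ± 0.125 (SE), adjusted p = 0.0278 in limma). Pdgfra, the PDGF receptor of oligodendrocyte precursors, was at 8.97 and 8.61 in controls and at 6.01 and 6.29 in mutants (difference -2.64 ± 0.15 (SE), adjusted p = 0.00934 in limma). The mutant mean of Pdgfra, 6.15, lay under the filter on dim genes (6.16), which it passed through its control values. The list had a median difference of -0.03, against 0.01 over all genes tested. Egfr was not called without control 1 (-1.04, adjusted p = 0.0847), with embryo sex as a covariate (adjusted p = 0.0540) or without the filter on dim genes (adjusted p = 0.0724), all in limma. The number of receptors called was 1 in those fits and 4 without mutant 2. The neurotrophin receptors Ntrk2 and Ntrk3, near which Shc3 is known to act in neurons, were not called. Ntrk2 was at 9.59 and 9.52 in controls and 9.74 and 9.64 in mutants (adjusted p = 0.466 in limma), and Ntrk3 at 9.59 and 9.58 against 9.64 and 9.61 (adjusted p = 0.799 in limma).

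The chain directly below Shc showed no called member. Of 13 tested genes of the GRB2, SOS, RAS and ERK list, none was called in limma, and 1 of them had an unadjusted p under 0.05, as did 13.4% of all genes tested. Differences ran from -0.19 to 0.14, with a median of 0.03. Grb2, the adaptor that Shc recruits, was at 9.72 and 9.59 in controls and 9.73 and 9.86 in mutants (difference 0.14 ± 0.08 (SE), adjusted p = 0.531 in limma). Sos1 and Sos2, the exchange factors it carries, differed by 0.03 and -0.01. The smallest p belonged to Nf1, a RAS GTPase-activating protein (-0.15, adjusted p = 0.352), and to Gab1, a docking protein (-0.16, adjusted p = 0.385).

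Of 8 tested partners and modifiers of Shc, none was called in limma, and 3 had an unadjusted p under 0.05, against 13.4% of all genes tested. The smallest p belonged to Shcbp1, a protein that binds the Shc SH2 domain and is high in dividing cells. It was at 7.30 and 7.19 in controls and at 6.57 and 6.76 in mutants, with no overlap (difference -0.58 ± 0.08 (SE), adjusted p = 0.0603 in limma). Ptk2b, the tyrosine kinase PYK2, was at 8.33 and 8.36 in controls and 8.74 and 8.54 in mutants (0.29, adjusted p = 0.231). Ptpn12, a phosphatase that acts on Shc, differed by 0.01.

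Other adaptors gave no called member. Among 19 tested docking and adaptor proteins the median difference was 0.06 and the range -0.39 to 0.24, and among 13 tested adaptors with a PTB domain the median was 0.03 and the range -0.13 to 0.19. At an unadjusted p under 0.05 there were 2 of the former and 1 of the latter, against 13.4% of all genes tested. Nck2, an SH2 and SH3 adaptor, was at 9.09 and 9.12 in controls and 9.36 and 9.34 in mutants (0.24, adjusted p = 0.164), and Grb10, an adaptor of insulin and IGF receptors, differed by -0.39 (adjusted p = 0.317). Mapk8ip2, a JNK scaffold, differed by 0.19 (adjusted p = 0.317), and Numbl, a relative of Numb, by 0.12 (adjusted p = 0.427), all in limma. The difference of Shc3 lay outside the range of both lists. The family was chosen with that difference known, so this does not set Shc3 apart from other adaptors.

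Downstream, 5 of the 17 genes on the list of ERK feedback and targets were called lower and none higher. Over all genes tested, 1.01% were called lower and 0.0143% higher. The median difference of the list was -0.43, against 0.01 over all genes tested. At an unadjusted p under 0.05 in limma there were 14 of the 17, against 13.4% of all genes tested. The feedback inhibitors Spred3 (-0.96, adjusted p = 0.0185), Spred1 (-0.50, adjusted p = 0.0314) and Spry2 (-0.53, adjusted p = 0.0427) and the ETS factors Etv5 (-1.39, adjusted p = 0.00538) and Etv4 (-0.72, adjusted p = 0.0226) were called in limma. Of the list, 16 genes had a lower mean in the mutants. The difference of Shc3 lay between those of Etv5 and Spred3. The number called was 1 without control 1, without control 2, without the filter on dim genes or with embryo sex as a covariate, 8 without mutant 1, 10 without mutant 2 and 10 with an intensity trend in limma.

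**Figure D4:**
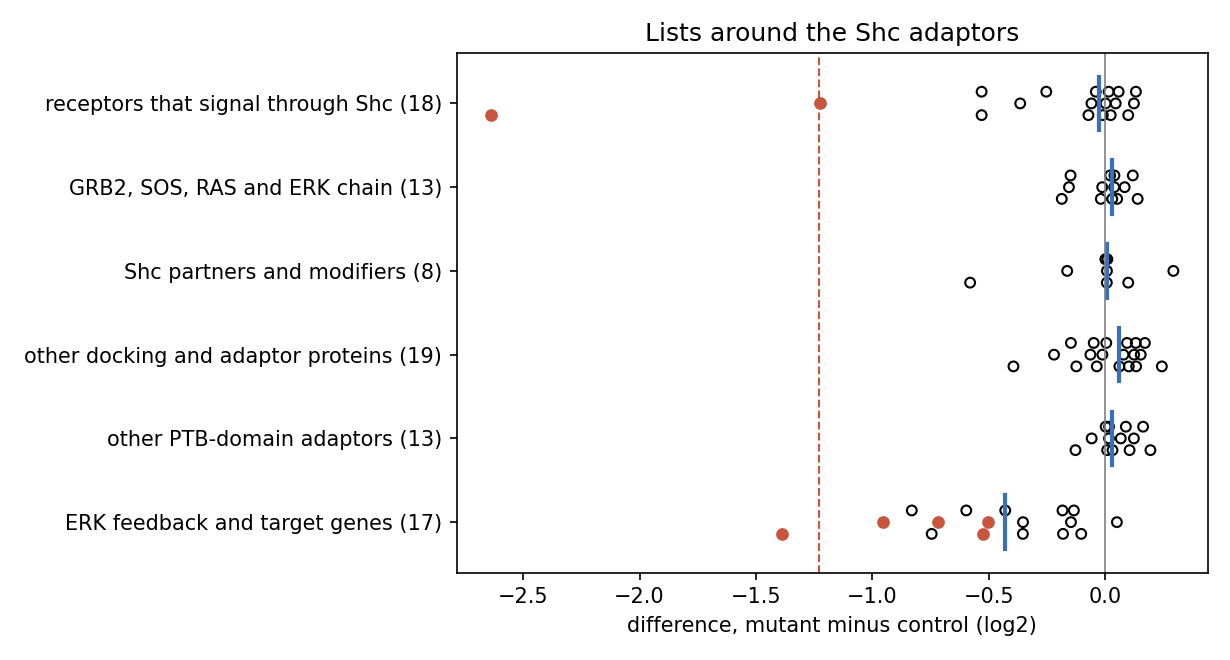
Difference, mutant minus control (x axis, log2), of each tested gene in 6 lists around the Shc adaptors (rows, number tested in parentheses). Filled red points were called in limma, open points were not, blue ticks are list medians and the dashed line is the difference of Shc3, -1.23; called genes stand in the receptor list (2) and in the ERK feedback and target list (5).

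Markers of several cell types moved with Shc3. Of 13 tested radial glia and astrocyte markers 8 were called lower, where 1.01% of all genes tested were. The log2 of the summed levels was 14.44 on both control arrays and 13.36 and 13.54 on the mutants. That sum takes in all 14 markers on the arrays, also those under the filter. The brightest features weigh most in it, as in the other sums given here. Of the 13 tested, 12 had a lower mean in the mutants, and Gfap did not (0.04). Of 7 markers of dividing cells 6 were called lower, with summed levels of 11.42 to 11.50 in controls and 10.50 to 10.65 in mutants. Of 6 oligodendrocyte precursor markers 3 were called lower and 5 had a lower mean in the mutants. The summed levels of the 6 were 10.49 to 10.50 in controls and 8.9997 to 9.0014 in mutants. Of those called, Pdgfra and Gpr17 had mutant means of 6.15 and 5.84. These lay under the filter on dim genes (6.16), which both genes passed through their control values. Slc1a3, the glutamate transporter GLAST, differed by -1.53, Hopx, a radial glia homeodomain protein, by -0.76 and Mki67, the Ki-67 antigen, by -1.04, beside -1.23 for Shc3. In bulk tissue, fewer cells of a type and less RNA per cell cannot be told apart, and the part of these cell types in the difference of Shc3 was not tested.

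No neuronal marker was lower in the mutants. None of 9 tested was called in limma, 1 (Neurod2) had an unadjusted p under 0.05, and each had a higher mean in the mutants, by 0.02 for Map2 to 0.20 for Neurod2. Their summed level was 14.52 to 14.57 in controls and 14.62 to 14.67 in mutants. None of 6 interneuron, 5 intermediate progenitor or 7 endothelial and pericyte markers was called in limma. At an unadjusted p under 0.05 there were 0, 2 and 0 of them, against 13.4% of all genes tested. Of 6 tested microglial markers 1 was called lower, Fcrls (-0.66, adjusted p = 0.0254 in limma), where 1.01% of all genes tested were. Fcrls was at 6.68 and 6.78 in controls and at 6.08 and 6.06 in mutants. It passed the filter on dim genes (6.16) through the controls. At an unadjusted p under 0.05 in limma there were 3 of the 6, against 13.4% of all genes tested. The summed levels of all 8 microglial markers on the arrays were 10.08 to 10.09 in controls and 9.88 to 9.92 in mutants. Ttr, the choroid plexus transthyretin, was at 9.15 on control 2 and between 6.50 and 7.17 on the other arrays, and the striatal marker Ppp1r1b was at 8.32 and 8.19 in controls and 8.90 and 8.64 in mutants (adjusted p = 0.122 in limma).

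**Figure D5:**
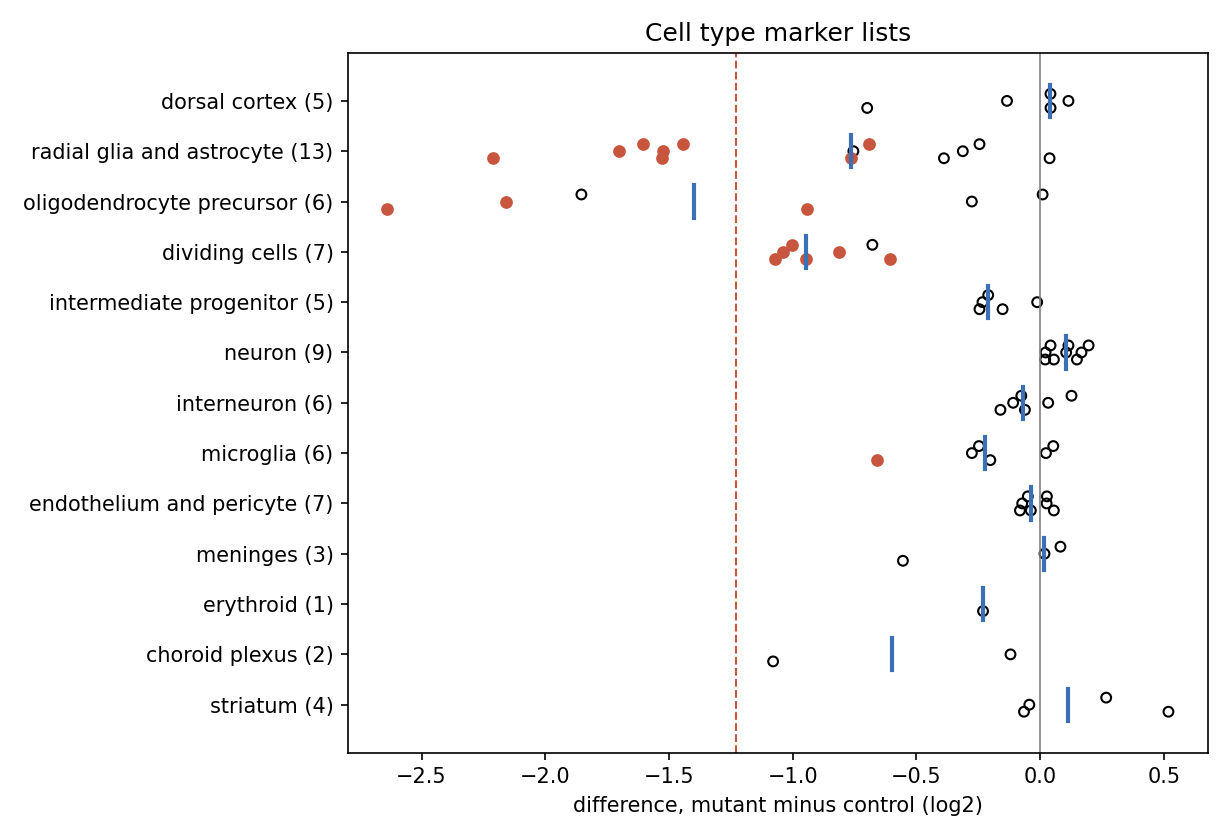
Difference, mutant minus control (x axis, log2), of each tested cell type marker (rows, number tested in parentheses), drawn as in the plot of the lists around the adaptors. The radial glia and astrocyte, oligodendrocyte precursor and dividing cell lists hold 8, 3 and 6 called genes, the neuron list none, and the dashed line is the difference of Shc3, -1.23.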

How the data were processed

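The deposited table holds log2 expression values for 35557 features on 4 arrays, which the authors obtained with RMA according to the submitters' processing notes. Base 2 was inferred from the spread of the values, while RMA's version and the genome build were not given in the sources used here. Array medians lay between 7.11 and 7.13. Precision is limited by having 2 arrays a group. Per the labels' protocols, RNA was extracted with Trizol, column-purified and biotin-labelled.

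Features were named from the platform annotation: 21789 have 1 symbol, 1621 several, and 12147 are unnamed here. Symbols were updated by Entrez identifier in RefSeq (21698 matched). The brightest feature stood for a gene, and genes under the 30th percentile of the mean were left out. The test was limma 3.58.1 under R 4.3.3 (no trend, no covariate, 2 residual and 3.31 prior degrees of freedom), tested on simulated data. The members, lists and tests were chosen with earlier results of these data known. Named genes are the members, the targeted genes, each list's called genes or the 2 with its smallest p, and the 6 nearest to Shc3; others were named after their values were seen. Alternatives covered the filter, normalization, trend, blocks, sex, every feature and each array left out.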

Additional observations from a re-analysis of the deposited data

How the results depend on the processing

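All 4 Shc genes kept their direction under every alternative run. Shc3 was called in 10 of 13, between -1.29 and -1.17 when 1 array was left out, and not when every feature was tested (-1.23, adjusted p = 0.217; limma called 0 of 35557 features there, with 3003 at an unadjusted p under 0.05). Shc4 ran from -0.40 to -0.24 with 1 array left out and was called once, without mutant 2. Shc1 and Shc2 were called in none of 12. The number of genes called lower, 141, became 15 without the filter, 217 with a trend, 17 with sex as a covariate and 0 with every feature, and 9 to 731 with 1 array left out (9 without either control). The number called higher, 2, became 0 without the filter, with sex or with every feature, 11 under the stricter filter, 4 with arrays centred on their medians, 21 with a trend, and 0 to 150 with 1 array left out. Where limma called none higher, 1001 (no filter) and 535 (sex) were higher at an unadjusted p under 0.05. Over the 6 lists, 7 members were called lower; this became 2 without the filter, 14 with a trend, 2 with sex, and 2 to 17 with 1 array left out, and those called higher numbered 0 to 1. Among the within-array differences between members, Shc1 minus Shc2 (-0.08) changed sign with the array left out. It was 0.05 without control 1 and 0.02 without mutant 2, against -0.21 without control 2 and -0.19 without mutant 1. The other pairs kept their sign. The cause of these changes was not tested.

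Replicate numbers are shared by the groups in the labels, but deviations of same-numbered arrays correlated at -0.16. With the replicate block Shc3 was called (-1.23, adjusted p = 0.0402 in limma), Shc1 (0.10), Shc2 (0.19) and Shc4 (-0.32) were not, and 113 genes were lower and 3 higher. Of the 5 ERK feedback and target genes called, 3 were called with that block, and Spred1 (adjusted p = 0.0577) and Spry2 (adjusted p = 0.0732) were not. A crossed replicate block, added after seeing the data and identical to the sex covariate, gave 17 lower and 0 higher genes, and 2 members of the lists.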
